A study of Mus musculus with 8 samples.

Results

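The 10 genes described here are interferon-induced antiviral effectors, namely Ifit1, Ifit2, Ifit3, Isg15, Isg20, Oas2, Oasl1, Mx1, Mx2 and Usp18, taken by symbol from the 750 immune-related genes of a mouse panel, on which all 10 had a probe. Type I interferon, once released, binds its receptor on neighboring cells and drives a transcription factor complex containing STAT2 and IRF9 to promoters that carry an interferon-stimulated response element (ISRE). The proteins made in response act against viruses by binding foreign RNA, tagging proteins, degrading RNA or trapping viral particles, and STING, a sensor adaptor for cytosolic DNA and cyclic dinucleotides, is a known route to this interferon.

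The samples were whole MC38 tumors, grown from a mouse colon cancer line after injection of the cells into the peritoneum of male wild-type C57BL/6 mice aged 7 to 8 weeks. From day 7 after implantation the mice were injected into the peritoneum 2 times, 3 days apart, and 4 of the tumors come from mice given 15 µg of the STING agonist RR-CDA (MIW815 or ADU-S100) and 4 from controls given an equal volume of PBS. Tumors were taken 10 days after the first injection, and their RNA was counted on a NanoString nCounter panel, which hybridizes a color-coded probe to each transcript and counts the codes. The comparison asks how far the antiviral program differed between the treatments at that late time.

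The data were pooled from 2 experiments, and which tumor came from which is not given in the sources used here. The labels do not say that each tumor came from its own animal, so the p-values measure the spread between these samples. Total counts of the 750 genes ranged from 241724 to 403150 in PBS tumors and from 241506 to 414698 in STING agonist tumors. Normalized counts are deposited counts divided by a factor proportional to the geometric mean of 20 housekeeping genes. Background, set 2 SD above the mean of a tumor's negative controls, averaged 8.62 counts over the tumors. Counts of different probes are not on a common scale, so where a marker list is given with the gene of most counts, this says what the sum is made of and is no order of RNA levels.

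PBS 2 and PBS 4 differed by less than the counting noise over 320 genes of 20 to 300 counts (chi-square over degrees of freedom 0.499, while the 11 other pairs within a group gave 5.42 to 14.9). Their average was used as 1 sample, for n = 3 against n = 4. This pair also stood apart from the other controls in Ptprc, the gene of the leukocyte antigen CD45. Ptprc had 108, 42.7, 111 and 41.2 normalized counts in PBS 1 to 4. STING agonist 4 stood apart in another way, with 1275 summed normalized counts of 8 hepatocyte genes where the 7 other tumors had 37.9 to 77.8. The labels give the tissue as colon, yet the epithelial genes Epcam and Cdh1 together reached only 15.9 to 48.3 normalized counts in any tumor.

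Every one of the 9 effectors above background had a higher mean in STING agonist tumors, by 0.23 to 0.65 on the log2 scale, although Oasl1 turned to the other side of 0 when scaled by TMM or by DESeq2 size factors, as did Mx2 without PBS 2 and 4 or without STING agonist 2. Over the panel, 531 of the 750 genes had a higher mean, and 465 of the 612 above background. The median log2 fold change was 0.43 over the 10 genes and 0.37 over the 9 above background, and that of all 750 genes was 0.21 and of the 612 above background 0.25. At an unadjusted p under 0.05 in edgeR's quasi-likelihood test, 3 of the 10 were higher (Ifit2, Ifit3 and Isg20), where 17.7% of all genes were, and 0 were lower, where 1.33% of all genes were. The adjusted p was under 0.05 for 0 of the 10 and for 0% of all genes, and the lowest adjusted p among the 10 was 0.191, for Ifit3 (edgeR). By the Wald test of DESeq2, 52 of the 750 genes and 0 of the 10 had an adjusted p under 0.05, and limma called 0 genes. With PBS 2 and 4 averaged, every STING agonist tumor lay above every control in 2 effectors, Ifit3 and Isg20, as in 16.8% of all genes, and in 0 every treated tumor lay below, as in 1.47%. So 2 of 10 is close to the panel's own share.

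**Figure D1:**
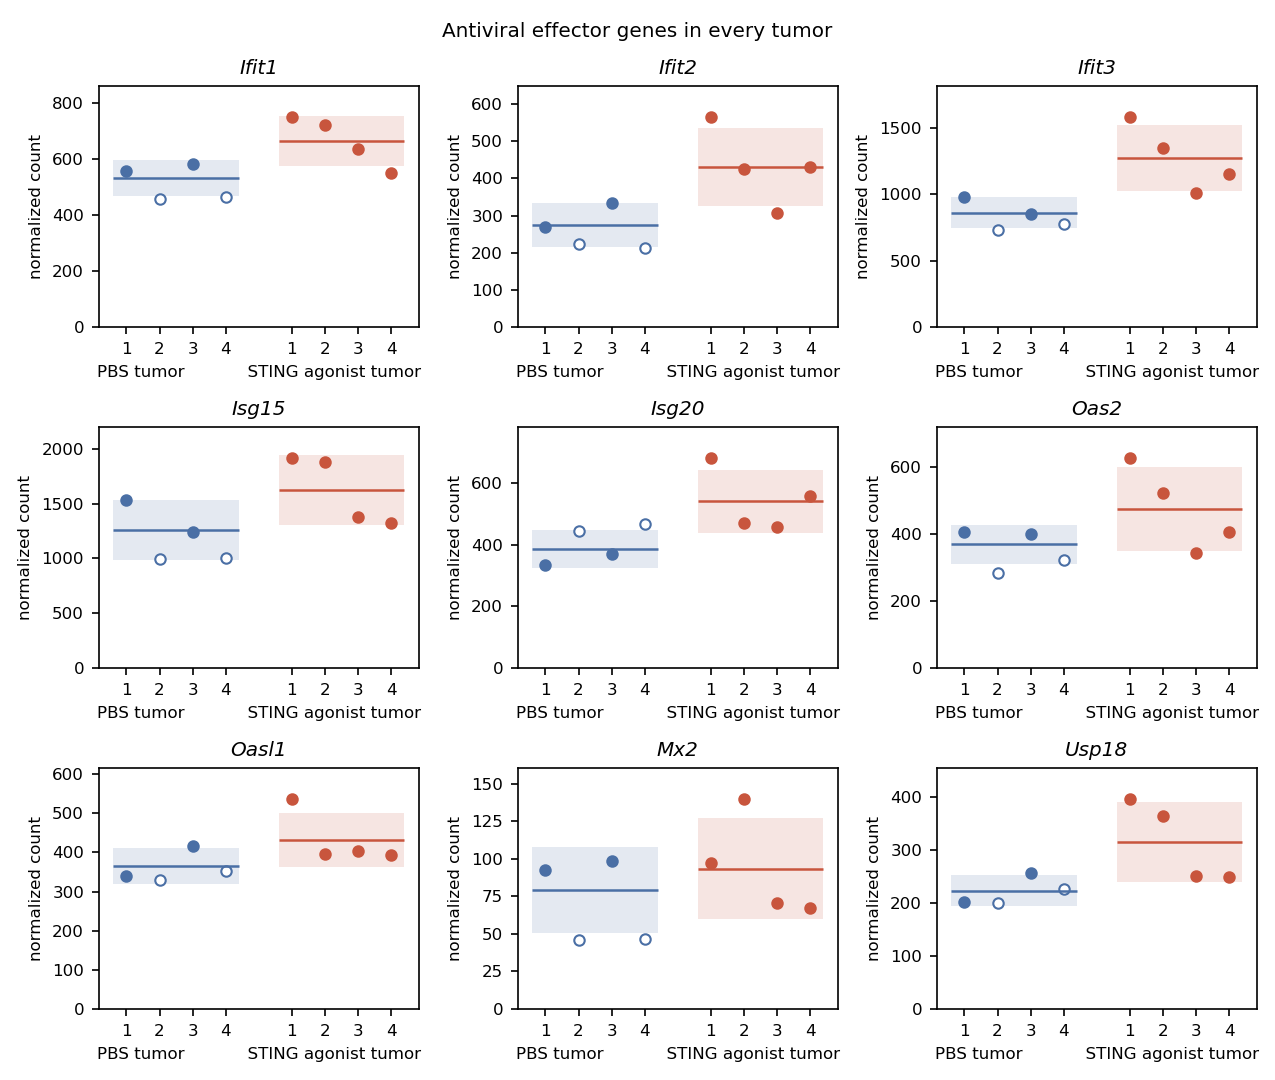
Normalized counts (y axis, from 0) of the 9 effectors above background in each PBS tumor (blue) and STING agonist tumor (red). Lines are group means and shading is 1 SD, with PBS 2 and 4 (open circles) averaged into 1 sample, n = 3 against 4; STING agonist 1 is the highest tumor in 8 of the 9 panels.

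The IFIT proteins bind viral RNA through tetratricopeptide repeats and hold back its translation. Ifit1, which recognizes RNA caps lacking a methyl group, had 557, 457, 581 and 464 normalized counts in PBS 1 to 4 and 748, 719, 634 and 551 in STING agonist 1 to 4. Treated tumors 1 to 3 were above the highest control, while STING agonist 4 lay below PBS 1 and 3, so the groups overlapped. The mean was 533 ± 64.7 (SD, n = 3) in controls and 663 ± 89.0 (SD, n = 4) after treatment, a log2 fold change of 0.31 ± 0.16 (SE, edgeR adjusted p = 0.338).

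Ifit2, a partner of the other IFIT proteins in RNA binding, had 270, 223, 335 and 213 normalized counts in the 4 controls and 564, 425, 307 and 431 in the 4 treated tumors. STING agonist 3 was the low treated tumor and lay under PBS 3. With 274 ± 58.6 against 432 ± 105 (SD), Ifit2 had the highest log2 fold change of the 9 effectors above background, 0.65 ± 0.24 (SE, edgeR adjusted p = 0.217). Ifit3, which stabilizes the complex that the family forms, had 979, 730, 855 and 775 normalized counts in controls and 1579, 1352, 1009 and 1150 in treated tumors. The groups were separate, with the narrowest gap between PBS 1 and STING agonist 3. Its log2 fold change was 0.56 ± 0.19 (SE, edgeR adjusted p = 0.191), and an exact permutation test over the 35 arrangements of the samples gave p = 0.0571, where 0.0286 is the smallest that test can give.

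The genes of the IFIT family lie together on chromosome 19, and the gene of the ubiquitin-like protein ISG15 lies on chromosome 4. Promoter windows from RefSeq (GRCm38.p6), reaching from 250 bases before a transcription start to 50 after it, were at hand for 6 of the 10 genes, in 9 windows, and not for Oas2, Usp18, Mx1 or Mx2. They were searched on both strands for the ISRE core GAAANNGAA, which reads TTCNNTTTC on the other strand, and for the gamma-activated site TTCNNNGAA, which reads the same on both. The 3 windows that hold an ISRE core are printed to show how many cores each has and where they lie. Each is written 5′ to 3′ along the gene, with ISRE core matches in capitals.
Ifit1 (chr19:34640639-34640938, plus strand): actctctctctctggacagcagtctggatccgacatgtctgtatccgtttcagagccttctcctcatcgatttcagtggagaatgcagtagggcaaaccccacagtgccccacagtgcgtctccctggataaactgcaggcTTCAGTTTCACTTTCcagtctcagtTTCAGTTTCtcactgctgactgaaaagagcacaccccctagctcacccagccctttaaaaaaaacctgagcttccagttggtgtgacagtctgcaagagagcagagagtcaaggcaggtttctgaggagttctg
Ifit3 (chr19:34583279-34583578, plus strand): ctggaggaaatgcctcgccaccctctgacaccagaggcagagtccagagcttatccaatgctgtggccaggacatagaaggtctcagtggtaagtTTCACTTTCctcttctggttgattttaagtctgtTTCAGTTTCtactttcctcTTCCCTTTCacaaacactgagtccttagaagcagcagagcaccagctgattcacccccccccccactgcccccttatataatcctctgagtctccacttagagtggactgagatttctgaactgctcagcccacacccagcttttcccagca
Isg15 (chr4:156200769-156201068, minus strand): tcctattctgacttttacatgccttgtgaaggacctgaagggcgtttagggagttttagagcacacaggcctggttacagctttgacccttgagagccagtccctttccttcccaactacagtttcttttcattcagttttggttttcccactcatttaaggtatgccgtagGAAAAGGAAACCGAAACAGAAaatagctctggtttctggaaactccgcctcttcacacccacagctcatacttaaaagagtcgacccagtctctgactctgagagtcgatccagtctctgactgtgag
Each of the 3 windows holds 3 matches. In Ifit1 the first begins 109 bases before the start and shares bases with the next, and the last begins 84 bases before it. In Ifit3 the matches begin 155, 121 and 102 bases before the start and are apart from each other, whereas in Isg15 they overlap in a single run that begins 78 bases before the start. Of 32851 windows of 300 bases, 8.56% hold an ISRE core and 8.30% a gamma-activated site, and in 54 windows the motifs overlap. Among the members, a gamma-activated site was found in 1 window each of Ifit2 and Isg20, none overlapping an ISRE core, and Oasl1 held neither motif in its window. A match describes these letters only, and neither binding nor activity was measured.

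ISG15 is a ubiquitin-like protein that is coupled to newly made proteins during infection, and USP18 removes it and also dampens signaling at the interferon receptor. Isg15 had 1537, 993, 1245 and 1009 normalized counts in PBS 1 to 4 and 1913, 1885, 1380 and 1326 in STING agonist 1 to 4. Only treated tumors 1 and 2 exceeded PBS 1, and 3 and 4 lay between PBS 3 and PBS 1. The means were 1260 ± 270 and 1626 ± 316 (SD), a log2 fold change of 0.37 ± 0.21 (SE, edgeR adjusted p = 0.362), and of 0.23 without PBS 2 and 4. Usp18 had 203, 201, 257 and 226 normalized counts in controls and 396, 366, 251 and 249.7 in treated tumors. The same treated tumors, 1 and 2, were high, and the other pair lay just below PBS 3. Its log2 fold change was 0.49 ± 0.22 (SE, edgeR adjusted p = 0.256), with an unadjusted p just above 0.05 that passed it in 6 of 20 alternatives.

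ISG20 is an exonuclease that degrades single-stranded RNA. Its gene had 336, 446, 370 and 468 normalized counts in PBS 1 to 4 and 680, 469, 458 and 557 in STING agonist 1 to 4. Here PBS 2 and 4 were the high controls, the reverse of their place in the IFIT genes. The average of that pair, 455, lay just below STING agonist 3, and PBS 4 taken alone lay above it, so the separation of the groups rests on the averaging. The log2 fold change was 0.49 ± 0.19 (SE, edgeR adjusted p = 0.230, exact permutation p = 0.0571), and 0.62 without PBS 2 and 4. It was 0.21 with TMM, 0.20 with DESeq2 size factors and 0.28 with the total count. The unadjusted p on these scales was 0.33, 0.35 and 0.10 (edgeR).

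OAS2 is an enzyme that makes short 2′-5′-linked oligoadenylates on double-stranded RNA and thereby switches on RNase L. Oas2 had 406, 284, 399 and 323 normalized counts in controls and 625, 523, 342 and 407 in treated tumors. STING agonist 3 lay below PBS 1 and 3, and STING agonist 4 matched PBS 1. The log2 fold change was 0.36 ± 0.23 (SE, edgeR adjusted p = 0.425), and it was 0.20 without STING agonist 1 and 0.24 without PBS 2 and 4. OASL1 lacks the enzymatic activity and is known in mice to restrain translation of IRF7. Oasl1 had 339.5, 328, 417 and 351 normalized counts in controls and 535, 395, 404 and 393 in treated tumors. Only STING agonist 1 was above PBS 3, and the 3 other treated tumors lay close together inside the range of the controls. The log2 fold change of Oasl1 was 0.24 ± 0.17 (SE, edgeR adjusted p = 0.481), next to the median of all genes, and it was 0.12 without STING agonist 1.

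MX proteins are dynamin-like GTPases that trap viral components, and C57BL/6 mice are known to carry defective alleles of both genes. RefSeq (GRCm38.p6) lists Mx1 and Mx2 as transcribed pseudogenes. Mx2 had 92.5, 45.8, 98.7 and 46.5 normalized counts in PBS 1 to 4 and 96.9, 139, 70.5 and 67.1 in STING agonist 1 to 4. PBS 2 and 4 were the lowest of all tumors and STING agonist 2 the highest, and treated tumors 3 and 4 lay below PBS 1 and 3. With 79.3 ± 28.5 against 93.5 ± 33.4 (SD), the log2 fold change was 0.23 ± 0.35 (SE, edgeR adjusted p = 0.809), and it was -0.038 without PBS 2 and 4, -0.029 without STING agonist 2 and 0.42 without PBS 3. Mx1 had 1, 2, 4 and 1 counts in controls and 2, 1, 5 and 6 in treated tumors. All 8 values were under the averaged background of 8.62 counts, and only the 6 counts in STING agonist 4 were above that tumor's own background, 5.50, so no fold change is given. The lowest count of any other effector was 35, in Mx2, where counting alone gives a relative error of 16.9%, and for Isg15 counting gives 2.41% to 3.63%.

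The 9 effectors above background shared much of their pattern over the 7 samples. On log2(normalized count + 1), with each gene centered on its own mean, their average was 0.48 in STING agonist 1 and 0.31 in STING agonist 2, but -0.095 in STING agonist 3 and 0.00 in STING agonist 4. The controls lay at -0.16 in PBS 1, -0.44 in the average of PBS 2 and 4 and -0.085 in PBS 3. STING agonist 3 thus sat at the level of PBS 3, and the distance between the groups came mainly from treated tumors 1 and 2 on one side and the averaged controls on the other. STING agonist 1 was the highest sample in 8 of the 9 genes, and STING agonist 2 in Mx2. The averaged controls were the lowest sample in 7 of the 9, the exceptions being Isg20 and Usp18, which were lowest in PBS 1.

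**Figure D2:**
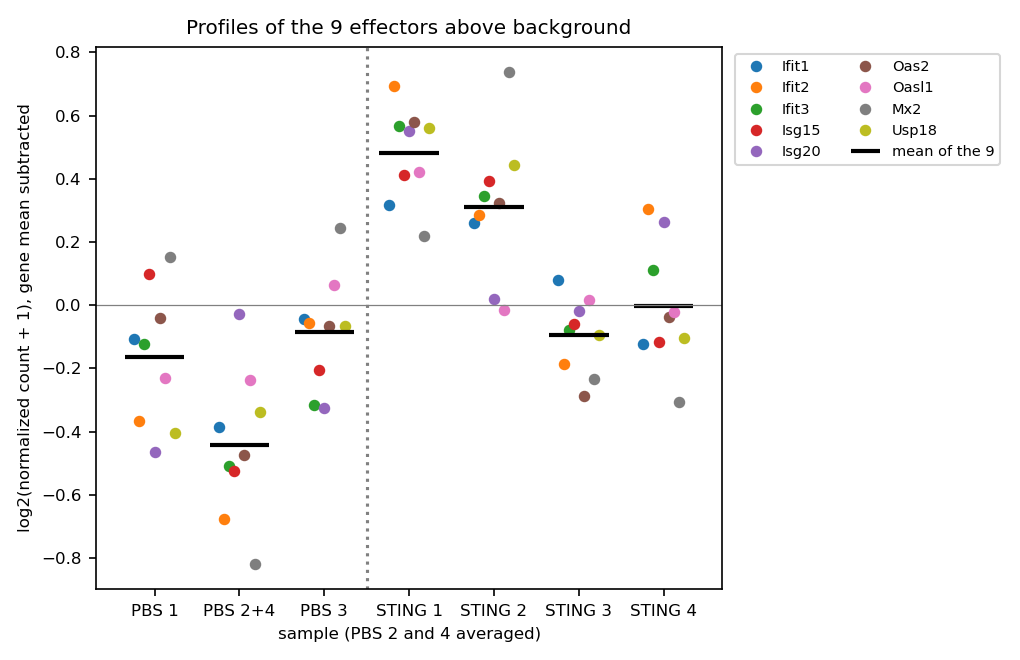
Log2(normalized count + 1) minus the gene's mean (y axis) for the 9 effectors above background (colored points) in the 7 samples (x axis), with the mean of the 9 as a black bar. The bar is at 0.48 in STING agonist 1 and at -0.44 in the average of PBS 2 and 4, and Mx2 and Isg20 leave the common pattern most.

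Distance between profiles was measured as the root mean square difference of these centered values over the 7 samples. Oas2 was nearest to the average of the 9, which includes it, at 0.096, followed by Ifit3 at 0.11 and Ifit1 at 0.11. Mx2 at 0.32 and Isg20 at 0.26 were farthest, and these genes also formed the most distant pair, at 0.58. Among single pairs, Isg15 with Oas2 (0.14), Isg15 with Ifit1 (0.14) and Ifit3 with Oas2 (0.14) were the closest. Ifit1 and Ifit3, which share a chromosomal cluster, stood at 0.18, farther apart than several pairs of genes on different chromosomes. Outside the effectors, 510 genes with a mean of at least 20 counts were compared with the average profile, and their median distance was 0.39. The 5 nearest were Ddx58 (0.089) and Ifih1 (0.11), which encode the cytosolic RNA sensors RIG-I and MDA5, Rel (0.12), an NF-κB subunit, Ifi35 (0.14), and Stat2 (0.14), the signal transducer of the interferon receptor. This is a description over 7 samples, without a test.

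Other genes of the interferon pathway were taken from a list of which 55 were on the panel. At an unadjusted p under 0.05 (edgeR), 21 of the 55 were higher in STING agonist tumors and 0 lower, with a median log2 fold change of 0.38. Without STING agonist 1 the count was 10, beside 77 of all 750 genes, and without PBS 2 and 4 it was 13, beside 90 of 750. For the sensing genes 2 of 14 were higher (Zbp1 and Tlr9), for interferons and their receptors 0 of 9, for signaling and transcription factors 5 of 10, and for other interferon-induced genes 14 of 22. These stand beside 3 of 10 effectors and 17.7% of all genes, and no difference between the groups was tested. The lowest adjusted p in the list was 0.171 (edgeR).

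Upstream of the effectors, Tmem173, the gene of STING, had 95.3, 67.7, 100.1 and 61.2 normalized counts in PBS 1 to 4 and 101 to 106 in treated tumors, with low values in PBS 2 and 4 and the treated tumors only narrowly above PBS 3 (log2 fold change 0.24 ± 0.21, SE; exact permutation p = 0.0286). It was 0.075 without PBS 2 and 4, 0.016 with TMM and 0.0002 with DESeq2 size factors. Tbk1, the kinase STING recruits, spanned 114 to 135 in controls and 120.0 to 131 in treated tumors. The receptor genes Ifnar1 and Ifnar2 gave log2 fold changes of 0.11 ± 0.13 and -0.04 ± 0.14 (SE), and both signs turned under other scales. Ifnb1, with 4 to 16 counts, was around background in every tumor. Ifna1 reached 52 counts in 1 control and Ifi44l 25, and both were near background elsewhere, so no fold change is given for these 3 genes. Irf9 was not on the panel.

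Of the named pathway genes, Zbp1, Irgm2, Cxcl10 and Ifi44 had larger log2 fold changes than any effector above background. Zbp1, a sensor of Z-form nucleic acids counted above with the sensing genes, had 1381, 1205, 1540 and 1283 normalized counts in controls and 3594, 2581, 1761 and 3173 in treated tumors, and the ratio of the group means was 2.004 (edgeR adjusted p = 0.171). Irgm2, an interferon-induced GTPase, and Cxcl10, a T cell-attracting chemokine, had 0.96 (SE 0.25) and 0.86 (SE 0.24). In Zbp1, Irgm2 and Cxcl10 every treated tumor lay above every control. STING agonist 4, which lay below PBS 1 in Ifit1 and Isg15, was high in these genes, with 3173 normalized counts of Zbp1 and 6073 of Cxcl10. The difference in response between these genes and the effectors was not tested. Irf7, the factor that amplifies interferon production, and Stat2 stood at 0.62 ± 0.24 and 0.52 ± 0.18 (SE), also with separate groups. Bst2, which tethers virions to the membrane, had 0.46 (SE 0.17), and Ifi44 had 0.69 (SE 0.23), with STING agonist 3 below PBS 1. The RNA sensor genes Ddx58 and Ifih1 had 0.41 (SE 0.20) and 0.27 (SE 0.17) with overlapping groups, close to the effectors they resembled in profile, and 0.26 and 0.15 without PBS 2 and 4, or 0.19 and 0.029 with TMM. Ifi27 and Ifi35 had 0.40 (SE 0.18) and 0.22 (SE 0.16). With TMM Ifi27 had 0.13. Ifi35 had 0.093 without PBS 2 and 4, and its sign turned with TMM (-0.0052) and with DESeq2 size factors (-0.019). Ifitm1, a membrane protein that blocks viral entry, went the other way with -0.22 (SE 0.38), and its highest values, 764 and 753, were in PBS 2 and 4, without which it was 0.24. It was -0.0035 without STING agonist 2, -0.47 without PBS 1 and -0.54 with TMM.

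**Figure D3:**
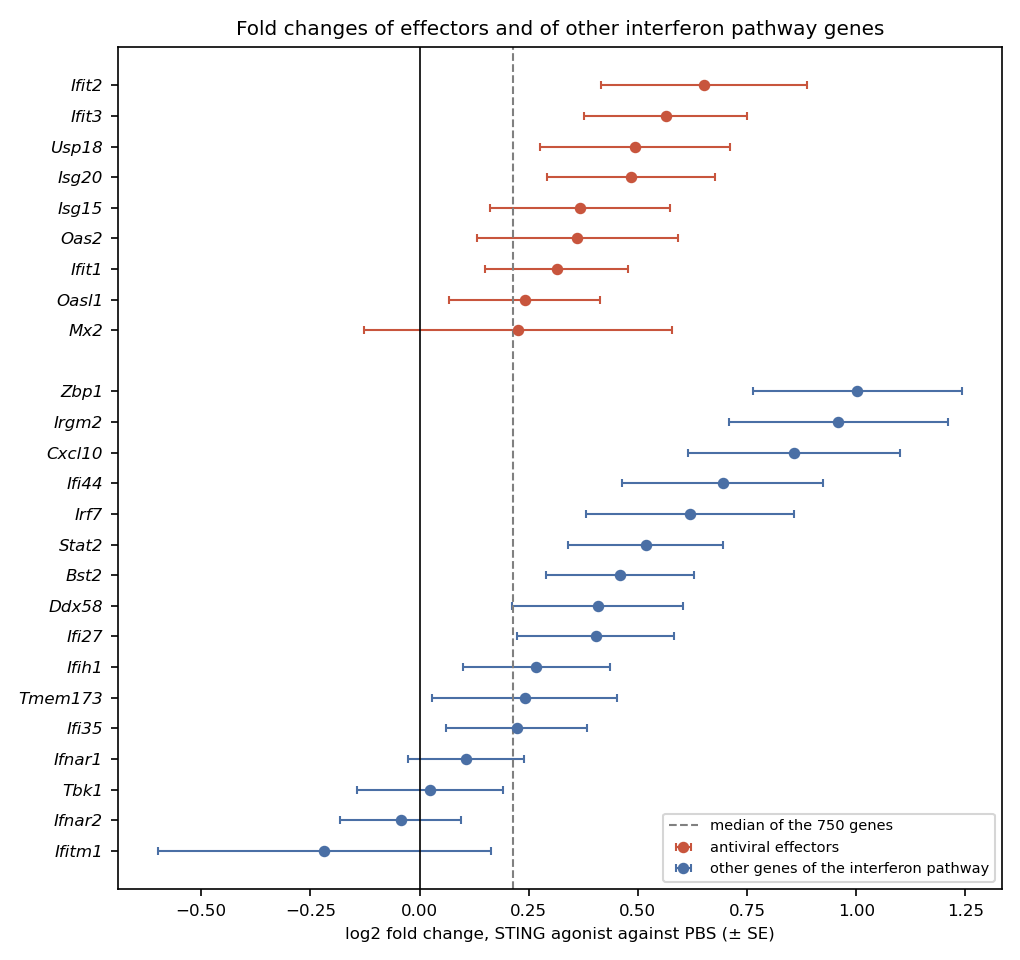
Log2 fold change between STING agonist and PBS tumors (x axis, bars are SE, n = 4 against 3) of the 9 effectors above background (red) and 16 other interferon pathway genes (blue). The dashed line is the median of the 750 genes at 0.21; the effectors lie between 0.23 and 0.65, and Zbp1, Irgm2, Cxcl10 and Ifi44 lie above all of them, while with TMM or DESeq2 size factors as the scale Oasl1 is just below 0.

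Ptprc and most T cell genes also had higher means in STING agonist tumors. Ptprc had 257, 166, 140 and 267 normalized counts in STING agonist 1 to 4, against 41.2 to 111 in the controls, with 1.24 ± 0.38 as its log2 fold change (SE, edgeR adjusted p = 0.181). Of 6 T cell genes, 5 had higher means and 3 of them an unadjusted p under 0.05 (edgeR), beside 531 of 750 and 17.7% over the panel. Their summed normalized counts were 155, 99.99, 166 and 108 in PBS 1 to 4 and 371, 189.5, 187 and 344 in treated tumors. Cd3d made up the largest part of the sum in controls and Cd3g in treated tumors 1, 2 and 4, and Cd4 and Cd2 were near background. The 6 macrophage and monocyte genes, with Cd68 giving the most counts, 5 having higher means and 1 an unadjusted p under 0.05 (edgeR), summed to 1598, 908, 2082 and 874 in controls and to 2364, 1725, 2042 and 2303 in treated tumors. Mrc1 was the gene with the lower mean, 252 after treatment against 302, and Emr1 the gene with the unadjusted p under 0.05. In Emr1 and Csf1r every treated tumor lay above every control, and the other genes of the list overlapped. Most effectors and the macrophage sum were both lowest in PBS 2 and 4, and the part of these cells in the result was not tested. In such bulk samples, fewer cells of a type and less RNA per cell cannot be told apart.

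Further lists were checked in the same manner. The 3 dendritic cell genes summed to 19.4, 18.8, 25.2 and 27.9 in controls and to 40.9, 28.1, 33.7 and 36.2 in treated tumors. Flt3 made up the largest part in controls and had a lower mean after treatment, 10.1 against 13.2. Itgax had 2.78 to 5.76 in controls, near background, and 8.18 to 23.4 in treated tumors, so no fold change is given, and Xcr1 was near background throughout. The 4 endothelial genes, with Pecam1 giving the most counts, summed to 239, 314, 293 and 339 and to 397, 358, 423 and 382. Every treated tumor lay above every control in both of these sums, but among the single genes only in Itgax and in the endothelial receptor gene Kdr, and Pecam1 overlapped, with 127 in STING agonist 2 and 162 in PBS 4. The 3 stromal genes, with Col3a1 giving the most counts, summed to 10330, 8596, 8647 and 8954 in controls and 7657, 8611, 6397 and 8453 in treated tumors. The collagen genes in this list went opposite ways. Col3a1 had a lower mean after treatment (log2 fold change -0.42 ± 0.16, SE, edgeR adjusted p = 0.217), and Col1a1, with 938, 546, 1380 and 525 normalized counts in controls and 1655, 1843, 1135 and 1691 in treated tumors, had 0.73 ± 0.31 (SE, edgeR adjusted p = 0.243). Col1a1 was low in PBS 2 and 4, as Ptprc was. The epithelial genes, both with lower means, summed to 40.6 on average in controls and 26.5 in treated tumors. Group means of the B cell genes were 34.8 and 42.8, of the NK cell genes 64.5 and 116, of the neutrophil genes 403 and 461, of the mast cell genes 14.5 and 10.0, and of the plasmacytoid dendritic cell gene Ccr9 7.02 and 10.5, all with overlapping groups, and 3 of the 4 B cell genes were near background. The hepatocyte genes, of which Ambp gave the most counts in STING agonist 4, had 0.93 to 22.6 normalized counts each in the other tumors, and without STING agonist 4 the median of the 9 effectors above background was 0.45.

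**Figure D4:**
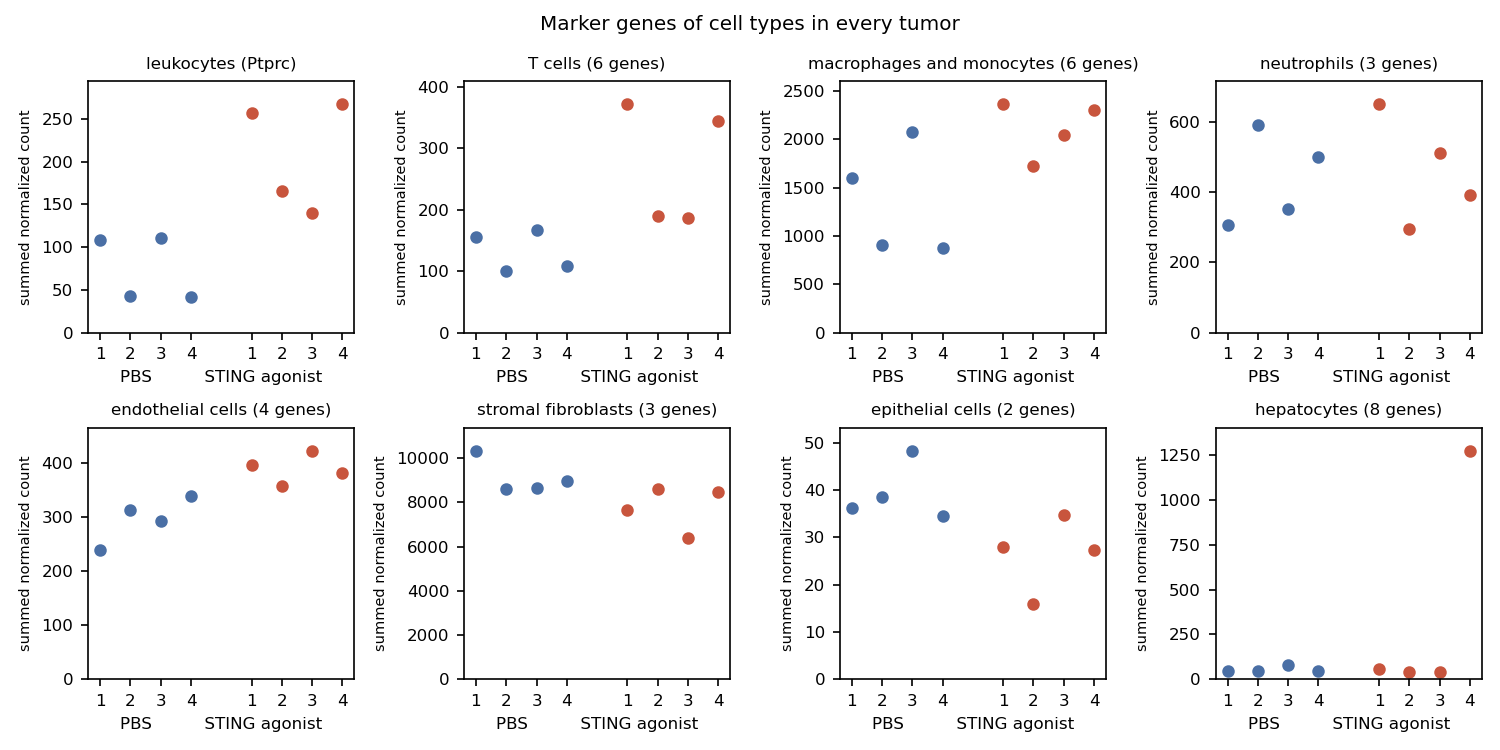
Summed normalized counts (y axis, from 0) of the marker genes of 8 cell types in each PBS tumor (blue) and STING agonist tumor (red). Ptprc is lowest in PBS 2 and 4, at 42.7 and 41.2, and hepatocyte genes stand out in STING agonist 4 at 1275.

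Set against Ptprc, the effectors were lower in STING agonist tumors. The log2 ratio of Ifit1 to Ptprc was 2.35 in PBS 1, 3.42 in the average of PBS 2 and 4 and 2.38 in PBS 3, and 1.54, 2.11, 2.17 and 1.04 in STING agonist 1 to 4, so every treated tumor lay below every control. All 9 effectors had a lower mean ratio to Ptprc after treatment, as did 714 of the 749 genes besides Ptprc, the effectors among them, with a median difference of -0.95, and 4 of the 9 had separate groups (Ifit1, Oas2, Oasl1 and Mx2). Over those 749 genes, groups were separate and lower in 43.9%, and the median difference was -1.09, and 4 of 9 is again close to the share of the panel. The ratio shows only that effector RNA and Ptprc RNA differed unequally between the treatments.

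The choice of scale set where the effectors stood relative to 0. TMM moved the median of all genes from 0.21 to -0.02, DESeq2 size factors moved it to -0.04 and the total count to 0.0077. The 9 effectors then ran from -0.0015 to 0.42 with TMM, from -0.016 to 0.40 with DESeq2 size factors and from 0.028 to 0.43 with the total count. Among all genes with an unadjusted p under 0.05 (edgeR), 133 were higher and 10 lower with housekeeping genes, 87 and 40 with TMM, 81 and 45 with DESeq2 size factors, and 68 and 31 with the total count. Among the 612 genes above background, the median of the 9 effectors stood 0.12 above that of all with housekeeping genes, 0.11 with TMM and 0.12 with DESeq2 size factors. This distance moved with single samples, from 0.013 without STING agonist 2 to 0.24 without STING agonist 4, and was 0.049 without PBS 3, 0.057 without STING agonist 1 and 0.039 without PBS 2 and 4. Of the 9 effectors 7 lay above the median of the 612, with Oasl1 and Mx2 below it, and 5 did without STING agonist 2 and 9 without STING agonist 4. The number with an unadjusted p under 0.05 (edgeR) went from 3 to 0 under TMM, 0 under DESeq2 size factors and 0 with the total count as the scale, 1 with positive controls, and 6 with all 8 tumors as separate samples. The setting of 8 separate tumors counts PBS 2 and 4 as independent, although they differed by less than the counting noise. Without STING agonist 1, the highest tumor, the number of effectors was 1. The number of higher genes in the panel of 750 moved too, from 133 to 89 with positive controls, 186 with 8 separate tumors and 77 without STING agonist 1. With PBS 2 and 4 left out, the median of the 9 was 0.24 and that of the 612 genes 0.20, and Ifit3 and Isg20 had an unadjusted p under 0.05 (edgeR).

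**Figure D5:**
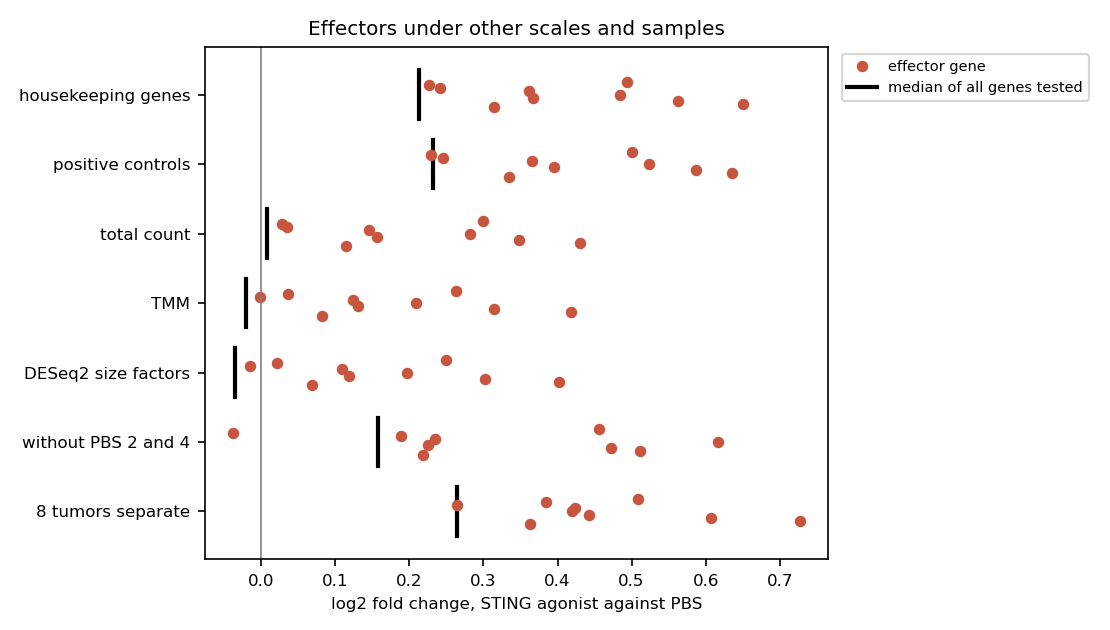
Log2 fold changes (x axis) of the 9 effectors above background (red points) under 5 scales and with other samples (y axis), with the median of all genes as a black bar. Bar and points shift together, the bar from 0.21 with housekeeping genes to -0.02 with TMM, where Oasl1 sits at 0; without PBS 2 and 4 the point left of 0 is Mx2.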

How the data were processed

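The authors hybridized RNA from whole tumors to the NanoString nCounter mouse immune panel and deposited raw counts per probe, neither scaled nor background-subtracted, for 784 probes (750 target genes, 20 housekeeping genes, 8 negative controls and 6 positive controls). Every count was at least 1. Genes, lists and motifs were chosen with earlier results of these data known.

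Computed here were the housekeeping scale, the chi-square between samples of a group, and edgeR's quasi-likelihood test (edgeR 4.0.16, R 4.3.3) on PBS 1, PBS 3 and the rounded mean of PBS 2 and 4 against STING agonist 1 to 4, without a filter or covariate, adjusted by Benjamini-Hochberg over 750 genes. SE is the log2 fold change divided by the square root of its F. Two-sided exact permutation tests used log2(normalized count + 1) and the absolute difference of means over 35 arrangements, run for all 750 genes; the lowest p adjusted over them was 0.258. The edgeR step was run on simulated counts in which genes changed by more than any effector did here, or not at all. That run does not show how often changes of the effectors' size would be found. Scaling to housekeeping genes assumes that they do not respond to treatment, and after it their log2 differences between groups ran from -0.22 to 0.18.

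Named were all 10 effectors, pathway genes from a fixed list, the 5 genes of nearest profile, Ptprc, and the marker genes with the most counts. Epcam, Cdh1, Xcr1, Cd2 and Cd4 were named besides as low markers. Cd3g, Emr1, Csf1r, Mrc1, Flt3, Itgax, Kdr and Col1a1 were named because they go with or against their list's sum. Alternatives were other scales (TMM, DESeq2 size factors, positive controls, total count, housekeeping genes of at least 100 counts), a filter at a mean of 20 counts, background subtraction, DESeq2 1.42.0, limma 3.58.1, pseudocounts of 0.1 and 20, other treatments of PBS 2 and 4, each tumor left out, and the replicate number as a block. Python 3.11.15 was used for summaries. Promoters came from RefSeq (GRCm38.p6); 8 of the 10 probe accessions matched its gene table and Mx1 and Mx2 were matched by symbol.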

Additional observations from a re-analysis of the deposited data

Results flagged for a closer look

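Among 43 values checked in the 4 STING agonist tumors, 4 had a single tumor far from the other 3, with a gap to its nearest neighbor larger than Dixon's 95% critical share of the range. Chance alone gives this in about 1 of 20 such groups. Oasl1 had 535 normalized counts in STING agonist 1, where the nearest tumor had 404. Ifna1 had 15.3 in STING agonist 3 against 7.01 in the nearest, all near background. The B cell marker sum was 24.45 in STING agonist 2, with 47.0 as the nearest. The hepatocyte marker sum was 1275 in STING agonist 4, with 57.2 as the nearest. Groups of 3 samples, as the controls form, were not tested.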

How the results depend on the processing

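In the 20 alternatives the count of effectors with an adjusted p under 0.05 was 0 throughout (edgeR, DESeq2 and limma). The count at an unadjusted p under 0.05 was 3. It became 0 under TMM, 0 under DESeq2 size factors, 0 with the total count and 1 with positive controls. With 8 separate tumors, where the near-identical PBS 2 and 4 count as independent, it was 6. Leaving out a tumor gave 1 to 4. Over the panel, the higher genes at that threshold went from 133 of 750 to 87, 81, 68, 89 and 186 in these settings, and to 77 to 153 with a tumor left out. The median log2 fold change of the effectors, 0.43, became 0.17 under TMM, 0.16 under DESeq2 size factors and 0.22 with the total count, and 0.32 to 0.52 with a tumor left out. This median includes Mx1, and over the 9 effectors above background 0.37 became 0.13, 0.12 and 0.16 under those scales, 0.24 without PBS 2 and 4, and 0.28 to 0.49 with a tumor left out. The median of all genes, 0.21, became -0.02, -0.04 and 0.0077 under the 3 scales. The count of interferon pathway genes, 21 of 55, became 13 under TMM, 13 under DESeq2 size factors, 13 with positive controls, 11 with the total count and 13 without PBS 2 and 4; leaving out a tumor gave 10 to 26.

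The same-numbered tumors did not deviate together (correlations of -0.28 to -0.06 over 517 genes). None correlated best with its own number (the best were 0.057 to 0.269). The near-identical PBS 2 and 4 enter these correlations as separate tumors. Whether same-numbered tumors share an experiment was not tested. With the replicate number as a block and 8 separate tumors, 3 effectors had an unadjusted p under 0.05 (edgeR), beside 159 higher genes of the 750. They were Ifit2, Ifit3 and Isg15, whereas Isg20, called in the main fit, had an unadjusted p of 0.083 (edgeR). In this fit 0 effectors had an adjusted p under 0.05 and 22 pathway genes an unadjusted p under 0.05. The median of the effectors was 0.43.

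Signs of single genes turned in 16 cases. Oasl1 was -0.0015 under TMM and -0.016 under DESeq2 size factors, and Ifi35 was -0.0052 and -0.019. Mx2 was -0.038 without PBS 2 and 4 and ran from -0.029 (without STING agonist 2) to 0.416 with a tumor left out. Tbk1 was -0.23 under TMM, -0.24 under DESeq2 size factors, -0.18 with the total count, and ran from -0.037 (without PBS 3) to 0.088 with a tumor left out. Ifnar1 was -0.14, -0.15 and -0.10 under TMM, DESeq2 size factors and the total count. Ifnar2 was 0.011 with positive controls and 0.023 without PBS 2 and 4, and Ifitm1 was 0.24 without PBS 2 and 4. With TMM and with DESeq2 size factors Ddx58 was 0.19 and 0.17, Ifih1 0.029 and 0.015, Ifi27 0.13 and 0.11, Bst2 0.20 and 0.19, Stat2 0.27 and 0.26, Irf7 0.38 and 0.37, and Ifi44 0.45 and 0.44. The cause was not tested. Zbp1, Irgm2, Cxcl10 and Ptprc had adjusted p values of 0.0142, 0.0226, 0.0321 and 0.0321 in the Wald test of DESeq2, Zbp1 had 0.0475 without STING agonist 3 (edgeR), and the other alternatives ran up to 0.408. No effector had an exact permutation p under 0.05, where 0.0286 is the smallest that test can give. Pseudocounts of 0.1 and 20 brought none of the effectors above background under it.

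Limits are the small groups, an assay that reads RNA of whole tumors at a single time, and counting error for genes near background.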
